A study of Mus musculus with 6 samples.

Results

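Insulin-like growth factors (IGFs) and insulin act through a pair of related receptor tyrosine kinases, the IGF1 receptor and the insulin receptor, which pass the signal to insulin receptor substrates such as IRS2. IGF-binding proteins are secreted proteins that hold IGFs outside the cell, where they can block access to the receptor, carry the ligand or release it after cleavage by proteases. The liver is a main source of circulating IGF1 and of several of these carriers, whereas adult hepatocytes are known to carry far more insulin receptor than IGF1 receptor.

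Of 10 genes chosen by name (Igfbp1 to Igfbp7, Igf1r, Insr and Irs2), 7 had a row among the 25416 genes of the deposited table: Igfbp3, Igfbp4, Igfbp6, Igfbp7, Igf1r, Insr and Irs2. The other 3, Igfbp1, Igfbp2 and Igfbp5, were not analysed here. The cells were AML12, an established line of mouse hepatocytes whose donor carried a transgene for human TGF alpha, grown with serum and with a supplement of insulin, transferrin and selenium, so that both groups were exposed to added insulin. The 3 siSetdb1 samples received an siRNA against Setdb1, which encodes a histone H3 lysine 9 methyltransferase, and the 3 siNC samples received a scrambled RNA. RNA was harvested after 72 h of transfection, and the comparison asks which transcripts differ when Setdb1 mRNA is reduced. No label states that the samples of a group were separate cultures, so each p-value reflects only how far these samples lie from each other, and that distance may be technical.

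Setdb1 was at 4.29, 4.21 and 3.29 FPKM (reads per unit of exon length, scaled to the sample's total) in siSetdb1, against 8.41, 8.54 and 9.43 FPKM in siNC, so the labels held in each library. Read counts, here and below, were worked back from the FPKM values and exon lengths. By this the libraries had 17073231 to 17835060 reads in siSetdb1 and 16790582 to 17401848 reads in siNC. On the second principal component of all tested genes, which held 19.3% of the variance, siSetdb1 replicate 3 (9.75) and siNC replicate 1 (15.0) lay apart from the other siSetdb1 libraries (-0.37 and 0.40) and the other siNC libraries (-10.7 and -14). Of 12 hepatocyte markers 10 reached 0.5 FPKM in 3 or more libraries, but Serpina1a and Asgr1 did not, and Alb, the gene of albumin, was at 2.61 ± 1.65 FPKM in siSetdb1 and 7.93 ± 5.54 FPKM in siNC (SD, n = 3 each). Of the cholangiocyte markers 5 of 5 with a row reached that level, among them the keratin gene Krt19 at 1353 ± 84 FPKM in siSetdb1 and 1300.2 ± 127 FPKM in siNC. Some other secreted hepatocyte products were more abundant than Alb in siNC, such as the apolipoprotein gene Apoa1 at 8.38 ± 5.75 FPKM in siSetdb1 and 22.9 ± 8.19 FPKM in siNC. In bulk RNA, fewer cells that express a gene and less RNA of it per cell cannot be told apart.

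Igfbp7 and Igfbp4 were the most abundant of these genes and were lower in siSetdb1, and Igfbp3 was higher. Igfbp7 fell by 37.9% and Igfbp4 fell by 36.8% in mean FPKM, and Igfbp3 was 1.88-fold higher. Among the receptors, Igf1r was 1.23-fold higher, while Insr did not pass the test, and neither did the adaptor gene Irs2. Genes were tested on log2(FPKM + 1) if they had at least 0.5 FPKM in 3 or more libraries, with limma and a Benjamini-Hochberg adjusted p below 0.05. Of the 7 genes with a row, 6 passed this filter on low values, and of these 2 rose, 2 fell and 2 did not pass. Over all 12846 genes tested, 15.1% passed in either direction, 6.87% higher and 8.27% lower, and the median log2 fold change was -0.02, beside -0.07 for the 6 genes. The FPKM ranges of the groups did not overlap for 5 of the 6 tested genes, against 39.2% of all genes tested. These shares are a description of a few chosen genes, and no test was made of the group as a whole.

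**Figure D1:**
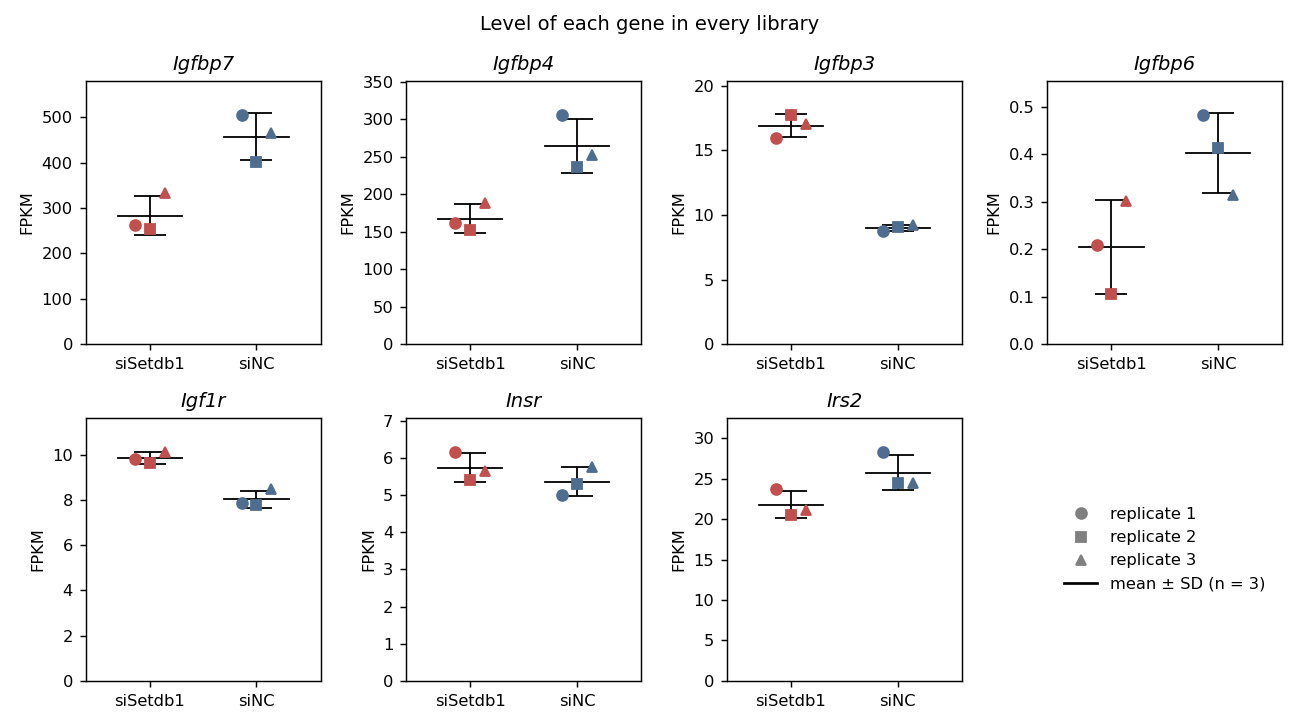
FPKM of the 7 genes in every library, siSetdb1 left and siNC right, each panel with its own linear axis from 0. Points are libraries, shaped by replicate number, and lines are the mean ± SD (n = 3). All siSetdb1 points lie below all siNC points for Igfbp7 and Igfbp4 and above them for Igfbp3 and Igf1r, and the Insr values of the groups overlap.

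The upstream sequences of the 3 binding protein genes that passed the test are shown because Igfbp7 and Igfbp4 moved together and Igfbp3 moved the other way. Each is the 250 bases before the gene start of RefSeq, 5′ to 3′ on the gene's strand, on build GRCm38.p6. For Igfbp7 that start lies a few bases upstream of the GENCODE start given with its values. The windows are chr5:77408046-77408295 (minus strand) for Igfbp7, chr11:99040994-99041243 (plus strand) for Igfbp4 and chr11:7213924-7214173 (minus strand) for Igfbp3. Capitals mark matches, on either strand, to 5 motifs. The TATA box was searched as TATAAA and the GC box as GGGCGG. The site of EGR factors was searched as GCGNGGGCG, that of AP-1 as TGANTCA and that of forkhead factors as GTAAACA, and no match overlapped another.
Igfbp7: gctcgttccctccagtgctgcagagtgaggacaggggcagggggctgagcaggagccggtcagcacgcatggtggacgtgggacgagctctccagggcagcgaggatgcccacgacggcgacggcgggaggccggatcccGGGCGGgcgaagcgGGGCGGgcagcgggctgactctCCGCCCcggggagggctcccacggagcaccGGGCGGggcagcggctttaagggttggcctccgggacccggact
Igfbp4: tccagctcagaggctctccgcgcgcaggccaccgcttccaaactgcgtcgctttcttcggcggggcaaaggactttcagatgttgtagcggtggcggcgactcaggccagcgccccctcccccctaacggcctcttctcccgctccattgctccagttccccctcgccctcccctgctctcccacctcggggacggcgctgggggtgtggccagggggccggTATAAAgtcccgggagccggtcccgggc
Igfbp3: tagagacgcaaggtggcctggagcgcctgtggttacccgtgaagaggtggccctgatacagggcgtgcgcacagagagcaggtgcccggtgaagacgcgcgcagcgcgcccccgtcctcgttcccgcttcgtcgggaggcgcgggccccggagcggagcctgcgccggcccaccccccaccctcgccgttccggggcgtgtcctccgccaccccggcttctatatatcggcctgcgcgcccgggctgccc

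The 3 windows were rich in G and C, at 74.0% for Igfbp7, 69.2% for Igfbp4 and 73.2% for Igfbp3, against a median of 52.4% over 32851 promoter windows of the same length. They held 26, 22 and 32 CpG dinucleotides, against a median of 6. This was not particular to them. Of the other genes with a window, Igf1r had 77.6% G and C and Irs2, which did not pass the test, had 72.8%, while Igfbp6 had 49.6%. Their CpG counts were 42, 34 and 7. For Igf1r, Irs2 and Igfbp6 the window ends further from the GENCODE start than for Igfbp7. It ends at 67952256, 11008930 and 102144185, against GENCODE starts of 67952827, 11008458 and 102144362. No start of a GENCODE transcript was found there, so the letters of these windows may not be those of the promoter in use. Igfbp7 had 4 GC boxes, a motif found in 32.7% of all windows, and no TATAAA. Igfbp4 had no GC box and 1 TATAAA, 28 bases before the gene start, a motif found in 12.4% of all windows. The Igfbp3 window matched none of the 5 motifs as searched. Near its end it holds TATATAT, which the exact string TATAAA does not cover, and other forms of the TATA box were not searched. Neither the EGR motif (4.7% of all windows) nor the AP-1 motif (6.75%) nor the forkhead motif (3.17%) was matched in the 3 windows, which says only that these letters are not there.

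Igfbp7 (ENSMUSG00000036256) encodes a binding protein of low IGF affinity that is also known to bind insulin, and lies on chromosome 5 at 77349240 to 77408041 of mm10, on the minus strand. It was at 262, 255 and 333 FPKM in siSetdb1, against 504, 402 and 464 FPKM in siNC, from 5256 to 7190 reads in siSetdb1 and 8451 to 10232 reads in siNC. The highest siSetdb1 library was replicate 3 and the highest siNC library was replicate 1, and the groups did not overlap. The mean was 283 ± 44 FPKM in siSetdb1 and 457 ± 52 FPKM in siNC (SD, n = 3 each). The log2 fold change was -0.691 (SE 0.127, 95% interval -0.987 to -0.395, limma adjusted p = 0.0137). The adjusted p was 0.0618 without siSetdb1 replicate 1 and 0.0595 without siSetdb1 replicate 2. At its 3′ end Igfbp7 shares 85 exon bases with Polr2b on the other strand, which had 30.9, 30.2 and 30.6 FPKM in siSetdb1 and 25.4, 31.5 and 30.4 FPKM in siNC.

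Igfbp4 (ENSMUSG00000017493), on the plus strand of chromosome 11 at 99041244 to 99054392, encodes a carrier best known for blocking IGF action until the protease PAPP-A cleaves it. Its values were 161, 152 and 189 FPKM in siSetdb1, against 306, 237 and 252 FPKM in siNC. As for Igfbp7, siSetdb1 replicate 3 and siNC replicate 1 were the highest libraries of their groups, with no overlap between groups. The mean was 168 ± 19 FPKM in siSetdb1 and 265 ± 36 FPKM in siNC. The log2 fold change was -0.655 (SE 0.119, 95% interval -0.932 to -0.378, limma adjusted p = 0.0132), from 11485 to 14884 reads in siSetdb1 and 18208 to 22653 reads in siNC. The adjusted p was 0.059 without siSetdb1 replicate 1 and 0.058 without siSetdb1 replicate 2. For both genes the highest libraries of the groups are those that stood apart on the second principal component, whose part in the result was not tested. Without siNC replicate 1 the log2 fold change was -0.617 for Igfbp7 (adjusted p = 0.026) and -0.548 for Igfbp4 (adjusted p = 0.0137), and without siSetdb1 replicate 3 it was -0.813 (0.0121) and -0.745 (0.0196).

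The ratio of Igfbp7 to Igfbp4 within a library does not depend on the library's total. It was 1.62, 1.67 and 1.76 in siSetdb1 and 1.65, 1.70 and 1.84 in siNC, with overlapping groups, so that the levels of these genes moved nearly in proportion across the 6 libraries. Igfbp7 made up 60.4% ± 1.2 of the summed FPKM of the 4 binding protein genes with a row in siSetdb1 and 62.5% ± 1.3 in siNC, and Igfbp4 made up 35.9% ± 0.8 and 36.2% ± 1.3. The sum was 468 ± 63 FPKM in siSetdb1 and 731 ± 85 FPKM in siNC. Both genes are also expressed by endothelial and stromal cells of the liver. Of 6 endothelial markers none reached 0.5 FPKM in 3 libraries, and they summed to 0.129 to 0.193 FPKM in siSetdb1 and 0.067 to 0.122 FPKM in siNC. Of 7 stellate cell or fibroblast markers with a row, 2 reached that level (Des and Vim, with a summed list level of 658 to 684 FPKM in siSetdb1 and 536 to 602 FPKM in siNC), and 5 were under 0.5 FPKM in every library. Of these 5, Col1a1 had 25 to 27 reads in siSetdb1 and 15 to 19 reads in siNC, Acta2 had 0 reads in siSetdb1 and 2 to 3 reads in siNC, and Dcn, Pdgfrb and Col3a1 had 0 reads in siSetdb1 and 0 to 2 reads in siNC. Of 4 macrophage markers with a row 1 reached that level (Cd68), with a summed list level of 2.39 to 3.17 FPKM in siSetdb1 and 4.75 to 6.64 FPKM in siNC. Of 10 hepatocyte markers tested, 1 rose, 3 fell and 6 did not pass, beside 6.87% higher and 8.27% lower over all genes tested. The keratin gene Krt18 rose to 2012 ± 64 FPKM in siSetdb1, against 1633 ± 100.4 FPKM in siNC (limma adjusted p = 0.0364). Among those that fell, the transcription factor gene Cebpa had a log2 fold change of -0.394 (adjusted p = 0.0484), and the transferrin gene Trf fell to 8.67 ± 2.88 FPKM in siSetdb1, against 23.8 ± 4.18 FPKM in siNC (adjusted p = 0.00816). The transthyretin gene Ttr was at 4.49, 4.15 and 12.4 FPKM in siSetdb1, against 27.2, 17.2 and 38.1 FPKM in siNC (adjusted p = 0.0247). The summed hepatocyte list, which keratins dominate, was at 3367 to 3485 FPKM in siSetdb1 and 2838 to 3242 FPKM in siNC. Of 5 cholangiocyte markers tested, 2 rose, 1 fell and 2 did not pass, beside the same shares over all genes tested. The keratin gene Krt7 (log2 fold change 0.499, limma adjusted p = 0.00827) and the transcription factor gene Sox9 (0.779, adjusted p = 0.0068) rose, and the osteopontin gene Spp1 fell (-0.916, adjusted p = 0.00689). The cholangiocyte list summed to 1636 to 1817 FPKM in siSetdb1 and 1650.1 to 1837 FPKM in siNC. The part of these markers in the values of Igfbp7, Igfbp4 and Igfbp3 was not tested.

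Igfbp3 (ENSMUSG00000020427), on the minus strand of chromosome 11 at 7206086 to 7213923, encodes the main carrier of IGFs in blood. It was at 16.0, 17.7 and 17.04 FPKM in siSetdb1, against 8.73, 9.09 and 9.19 FPKM in siNC. The libraries of a group lay close together and the groups were far apart. The mean was 16.9 ± 0.9 FPKM in siSetdb1 and 9.003 ± 0.24 FPKM in siNC. The log2 fold change was 0.839 (SE 0.068, 95% interval 0.680 to 0.997, limma adjusted p = 0.00114), from 863 to 951 reads in siSetdb1 and 459 to 495 reads in siNC. Igfbp3 passed under each of the 15 alternative settings, with log2 fold changes of 0.806 to 0.877 with any 1 library left out. Its share of the summed binding protein FPKM was 3.65% ± 0.51 in siSetdb1 and 1.24% ± 0.17 in siNC. The ratio of Igfbp4 to Igfbp3 FPKM was 10.1, 8.61 and 11.1 in siSetdb1, against 35.0, 26.1 and 27.5 in siNC.

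Igfbp6 (ENSMUSG00000023046; chromosome 15, 102144362 to 102149511), whose product prefers IGF2 over IGF1, was under the filter on low values. It was at 0.208, 0.105 and 0.303 FPKM in siSetdb1, against 0.482, 0.413 and 0.314 FPKM in siNC, from 2 to 6 reads per library in siSetdb1 and 6 to 9 in siNC. The summed reads were 12 in siSetdb1 (exact 95% Poisson interval 6.2 to 21) and 23 in siNC (14.6 to 34.5), which covers counting error only. With no filter its adjusted p was 0.261 on log2(FPKM + 1), and 0.292 with limma-voom on reads, so a difference was not detectable at this depth.

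Igf1r (ENSMUSG00000005533; chromosome 7, 67952827 to 68233668, plus strand), the gene of the IGF1 receptor, was at 9.81, 9.61 and 10.1 FPKM in siSetdb1, against 7.85, 7.75 and 8.47 FPKM in siNC. The lowest siSetdb1 library was above the highest siNC library. The mean was 9.84 ± 0.25 FPKM in siSetdb1 and 8.02 ± 0.39 FPKM in siNC. The log2 fold change was 0.266 (SE 0.0675, 95% interval 0.109 to 0.422, limma adjusted p = 0.0382), from 2755 to 3027 reads in siSetdb1 and 2213 to 2442 reads in siNC. Igf1r did not pass when siSetdb1 replicate 1 (adjusted p = 0.13), 2 (0.103) or 3 (0.117), or siNC replicate 2 (0.107) or 3 (0.0543), was left out, nor with no filter (0.0843). With trends in GC content and gene length removed the log2 fold change was 0.157 (adjusted p = 0.109).

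Insr (ENSMUSG00000005534; chromosome 8, 3122061 to 3279617, minus strand), the gene of the insulin receptor, was at 6.16, 5.40 and 5.65 FPKM in siSetdb1, against 5.00, 5.31 and 5.77 FPKM in siNC, with overlapping groups. The log2 fold change was 0.083 (SE 0.081, limma adjusted p = 0.513), with a 95% interval of -0.105 to 0.271 that includes the change of Igf1r. It was -0.043 with trends in GC content and gene length removed. Igf1r was above Insr in each of the 6 libraries, by a ratio of FPKM of 1.59, 1.78 and 1.79 in siSetdb1 and 1.57, 1.46 and 1.47 in siNC. Whether the changes of these receptor genes differ was not tested.

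Irs2 (ENSMUSG00000038894; chromosome 8, 10984681 to 11008458, minus strand) encodes an adaptor that links the activated receptors to PI3 kinase, and in liver its transcription is known to be held down by insulin. It was at 23.7, 20.5 and 21.1 FPKM in siSetdb1, against 28.3, 24.5 and 24.5 FPKM in siNC. The highest siSetdb1 library was below the lowest siNC library, but the log2 fold change of -0.232 (SE 0.087, 95% interval -0.434 to -0.030) had a limma adjusted p of 0.111. Irs1, the gene of the related adaptor, was under the filter at 0.298, 0.263 and 0.258 FPKM in siSetdb1, against 0.534, 0.402 and 0.446 FPKM in siNC. These values rest on 130 summed reads (exact 95% Poisson interval 109 to 154) in siSetdb1 and 216 (188 to 247) in siNC. With no filter the adjusted p of Irs1 was 0.203 on log2(FPKM + 1), a scale on which so low a gene can move little, and 0.0349 with limma-voom on reads (log2 fold change -0.742). The ratio of Irs2 to Irs1 FPKM was 79.5, 78.2 and 81.9 in siSetdb1 and 52.9, 60.9 and 54.9 in siNC.

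**Figure D2:**
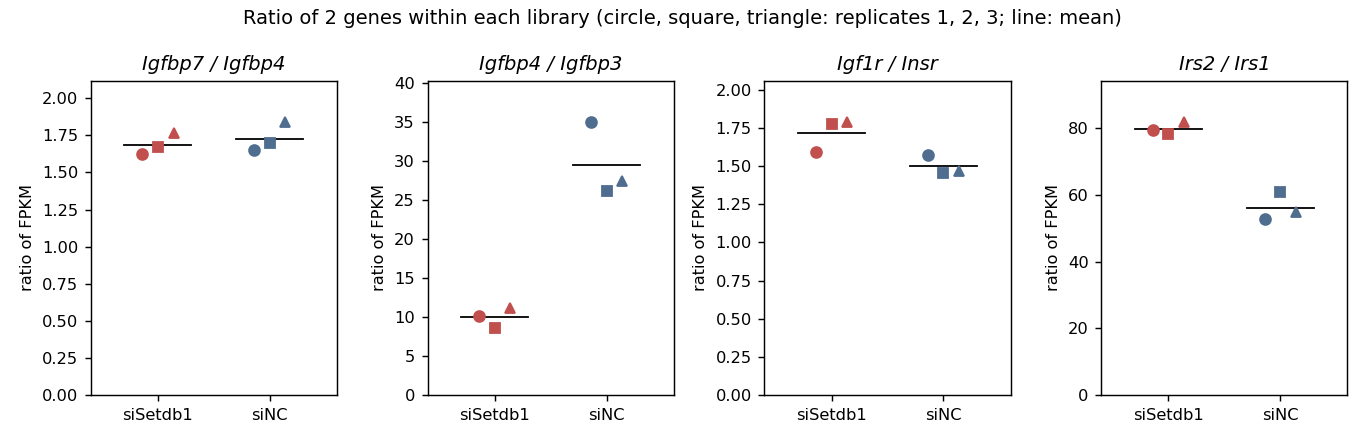
Ratio of the FPKM of 2 genes within each library, for the 4 ratios given in the text, siSetdb1 left and siNC right, on linear axes from 0. Points are libraries, shaped by replicate number, and lines are means. The Igfbp7 to Igfbp4 ratio overlaps between groups (1.62 to 1.76 and 1.65 to 1.84). The Igfbp4 to Igfbp3 ratio is 8.61 to 11.1 in siSetdb1 and 26.1 to 35.0 in siNC. The remaining ratios lie higher in all siSetdb1 libraries, for Igf1r to Insr only narrowly (lowest siSetdb1 value 1.59, highest siNC value 1.57).

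**Figure D3:**
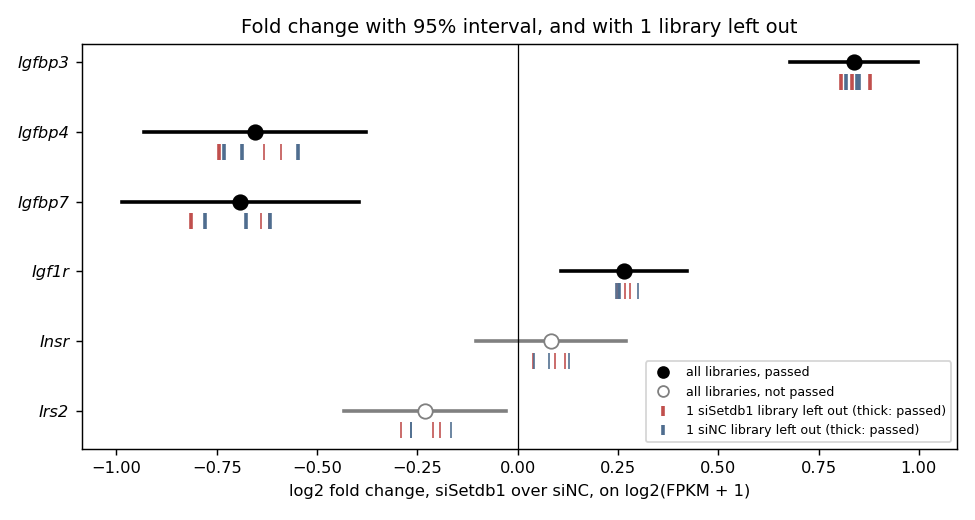
Log2 fold change of siSetdb1 over siNC on log2(FPKM + 1) for the 6 tested genes, with its 95% interval (bars) and, beneath each, the value with 1 library left out (ticks, thick where the adjusted p stayed below 0.05). Igfbp3 passed whichever 1 library was left out, while Igfbp4 and Igfbp7 did not pass without siSetdb1 replicate 1 or 2.

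The order of FPKM levels was the same in each of the 6 libraries: Igfbp7, Igfbp4, Irs2, Igfbp3, Igf1r, Insr and Igfbp6. The values of neighbours in this order did not overlap within either group, for 6 of 6 pairs. Among all 12846 tested genes, 1.03% lay above the mean level of Igfbp7 in siSetdb1 and 0.701% in siNC. For Igfbp3 these shares were 25.3% and 41.6%. Across the 6 libraries, the genes with the pattern closest to that of Igfbp3 were Efcab14, the uroplakin gene Upk1b and the integrin gene Itga6 (Pearson's r of log2(FPKM + 1) 0.997 each). For Igfbp7 they were Mrpl14, a gene of the mitochondrial ribosome, the glutaredoxin gene Glrx and Gm5881 (r = 0.999, 0.997 and 0.996). These correlations are a description, since the 6 points share library and group.

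Other genes of the pathway were taken from 6 lists, of which 89 genes were tested. Of these 14 rose, 12 fell and 63 did not pass, beside 6.87% higher and 8.27% lower over all genes tested. The ligand gene Igf1 had 1 read in each siSetdb1 library and 0, 2 and 2 reads in the siNC libraries, and Igfals, the gene of the acid-labile subunit that joins IGFBP3 and IGF1 in blood, had 17 summed reads in each group. Igf2 was not analysed here. The receptor gene Igf2r, whose product clears IGF2 and sorts lysosomal enzymes, was at 1.75, 1.37 and 1.63 FPKM in siSetdb1, against 2.72, 2.30 and 3.03 FPKM in siNC. The groups did not overlap, and the log2 fold change was -0.51 (SE 0.106, limma adjusted p = 0.0209). Igf2r did not pass when any 1 siSetdb1 library (adjusted p = 0.0565, 0.0802 and 0.0555) or siNC replicate 3 (0.0543) was left out, nor with no filter (0.0596).

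Genes of proteases that act on binding proteins were higher in siSetdb1 where they passed. Of 13 listed genes with a row, 6 were tested, of which 3 rose, none fell and 3 did not pass, with a median log2 fold change of 0.31. Over all genes tested 6.87% rose, and the median was -0.02. Htra3, a serine protease of the HtrA family that itself carries an IGFBP-like domain, was at 23.0, 23.4 and 24.5 FPKM in siSetdb1, against 13.4, 12.6 and 11.5 FPKM in siNC (log2 fold change 0.87, limma adjusted p = 0.0012). Adam12, whose human product cleaves IGFBP3 and IGFBP5, was at 15.5, 16.3 and 14.6 FPKM in siSetdb1, against 9.64, 11.0 and 10.1 FPKM in siNC (log2 fold change 0.553, adjusted p = 0.00514). Plat, the gene of tissue plasminogen activator, which forms the protease plasmin, was at 20.9, 17.7 and 20.5 FPKM in siSetdb1, against 11.9, 11.6 and 12.6 FPKM in siNC (log2 fold change 0.665, adjusted p = 0.00371). The groups were apart for all 3 genes, as for 39.2% of all genes tested, and each passed under all 15 alternative settings. The tested genes that did not pass were Htra1 (log2 fold change 0.067), the cathepsin D gene Ctsd (-0.125) and the urokinase gene Plau (-0.24). A separate list held 5 tested genes with an IGFBP-like N-terminal domain, and Htra3 and Htra1, placed among the proteases, were not counted there. On this list Ccn2, the gene of connective tissue growth factor, rose to 156 ± 4 FPKM in siSetdb1, against 121 ± 16 FPKM in siNC (log2 fold change 0.369, adjusted p = 0.0467). It did not pass when any 1 siSetdb1 library, siNC replicate 1 or siNC replicate 2 was left out (adjusted p = 0.0504 to 0.145), nor with no filter (0.117), and the other 4 genes did not pass with all libraries.

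At the receptor, 7 of 23 tested genes of adaptors and negative regulators were higher, 1 was lower and 15 did not pass, with a median of 0.095. The shares over all genes tested were 6.87% higher and 8.27% lower. Socs1, a suppressor of cytokine signalling that also binds IRS proteins, was at 2.11, 2.46 and 3.43 FPKM in siSetdb1, against 1.25, 1.09 and 1.14 FPKM in siNC (log2 fold change 0.748, limma adjusted p = 0.013). It passed in all 15 alternatives. The adaptor gene Shc1 rose to 73.6 ± 2.9 FPKM in siSetdb1, against 56.1 ± 2.5 FPKM in siNC (log2 fold change 0.385, adjusted p = 0.0113), but did not pass (0.06) when siSetdb1 replicate 1 was left out. Dok4 (0.419), the RAS activator gene Sos2 (0.406) and the ubiquitin ligase gene Cbl (0.316) rose on the log2 scale, and the adaptor gene Grb7 fell by 0.417. None of these 4 passed when any 1 siSetdb1 library was left out (adjusted p = 0.06 to 0.157). The number that rose was 1, 2 and 2 without siSetdb1 replicates 1, 2 and 3, 10, 3 and 2 without siNC replicates 1, 2 and 3, and 2 with no filter. The number that fell was 0 when any 1 siSetdb1 library or siNC replicate 2 was left out. It was also 0 with no filter and with median-ratio scaling, and 1 without siNC replicate 1 or 3. Over all genes tested 883 rose with all libraries, and 363, 355 and 457 without siSetdb1 replicates 1, 2 and 3. Without siNC replicates 1, 2 and 3, 1101, 486 and 642 genes rose, and with no filter 460. Those that fell numbered 1062 with all libraries and 326, 328 and 521 without siSetdb1 replicates 1, 2 and 3.

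Downstream, most genes of the PI3 kinase, AKT and mTOR cascade did not pass, with 3 of 33 tested genes higher, 2 lower and 28 not passing, and a median of 0.027. These 5 of 33 genes are about the share called over all genes tested (15.1%), so the count shows nothing about the cascade. Trib3, a pseudokinase gene whose product binds AKT, rose to 19.2 ± 1.8 FPKM in siSetdb1, against 13.3 ± 0.8 FPKM in siNC (log2 fold change 0.495, limma adjusted p = 0.0112), and passed in all 15 alternatives. Pdpk1, the gene of the kinase PDK1 that activates AKT, had a log2 fold change of 0.422 (adjusted p = 0.0167), and Gsk3b, a kinase that AKT inhibits, 0.278 (adjusted p = 0.0447). Deptor, the gene of an mTOR-binding inhibitor, was at 8.996, 6.57 and 9.45 FPKM in siSetdb1, against 11.5, 12.3 and 14.5 FPKM in siNC (log2 fold change -0.569, adjusted p = 0.0353), and the PI3 kinase subunit gene Pik3r3 had a log2 fold change of -0.392 (adjusted p = 0.0262). Deptor, Pdpk1, Pik3r3 and Gsk3b did not pass without siSetdb1 replicate 1 (adjusted p = 0.0799, 0.075, 0.0796 and 0.129) or without siSetdb1 replicate 2 (0.0817, 0.067, 0.093 and 0.13). Only Trib3 passed without either of these libraries, and the number that rose was 1, 1 and 2 without siSetdb1 replicates 1, 2 and 3 and 1 without siNC replicate 2. Over all genes tested 883 rose with all libraries. That number was 363, 355 and 457 without siSetdb1 replicates 1, 2 and 3, and 486 without siNC replicate 2.

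FOXO factors enter the nucleus when insulin or IGF signalling is low and raise transcription of genes such as Irs2 and Insr, which are described above. Of 21 other FOXO factors and FOXO-responsive genes tested, 8 fell, none rose and 13 did not pass, with a median log2 fold change of -0.23. Over all genes tested 8.27% fell and 6.87% rose. The 4 factor genes Foxo1 (log2 fold change -0.072), Foxo3 (-0.203), Foxo4 (0.095) and Foxo6 (0.211) did not pass. Klf15, a transcription factor gene of fasting metabolism, was at 7.67, 4.85 and 7.05 FPKM in siSetdb1, against 15.4, 13.98 and 13.9 FPKM in siNC (log2 fold change -1.05, limma adjusted p = 0.00539), and passed in all 15 alternatives. Depp1 was at 6.78, 2.98 and 2.77 FPKM in siSetdb1, against 12.7, 12.9 and 9.90 FPKM in siNC (log2 fold change -1.39, adjusted p = 0.0177). Depp1 did not pass when siSetdb1 replicate 2 (0.067) or 3 (0.0525), or siNC replicate 1 (0.052) or 2 (0.0576), was left out, nor with no filter (0.059). Bcl2l11, the gene of the cell death protein BIM, fell to 5.23 ± 0.39 FPKM in siSetdb1, against 7.78 ± 0.77 FPKM in siNC (log2 fold change -0.494, adjusted p = 0.0134), but did not pass (0.0575) when siSetdb1 replicate 2 was left out. The cell cycle inhibitor gene Cdkn1b (log2 fold change -0.404), the catalase gene Cat (-0.368) and the sestrin gene Sesn1 (-0.357) also fell, but none of these 3 passed when any 1 siSetdb1 library was left out (adjusted p = 0.06 to 0.146). The number that fell was 3, 1 and 2 without siSetdb1 replicates 1, 2 and 3, 6, 3 and 3 without siNC replicates 1, 2 and 3, 2 with no filter and 5 with median-ratio scaling. Over all genes tested 1062 fell with all libraries, and 326, 328 and 521 without siSetdb1 replicates 1, 2 and 3. That number was 1075, 574 and 760 without siNC replicates 1, 2 and 3, 430 with no filter and 847 with median-ratio scaling.

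**Figure D4:**
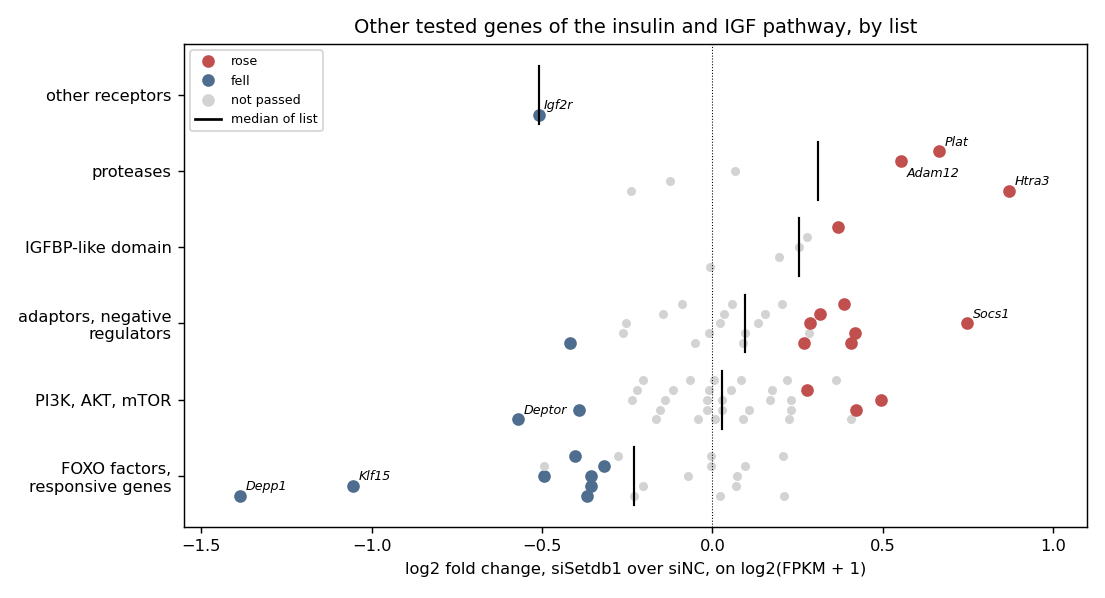
Log2 fold change of siSetdb1 over siNC on log2(FPKM + 1) for the 89 other tested genes of the pathway, 1 point per gene, by list. Coloured points passed (red rose, blue fell), gray points did not, and black lines are list medians, which run from -0.51 (Igf2r alone) to 0.31 (proteases). Genes that passed are named where the log2 fold change is at least 0.5 in size.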

How the data were processed

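The deposited table held 1 FPKM value per gene and sample, made by the authors before deposit. Its header names no unit, so the unit was read from the values: with summed exon lengths of GENCODE M21, 98.7% to 98.8% of values above 0 came out as whole reads within a tolerance of 0.01. Per the submitters' processing notes, the tools were RSEM 1.2.12, HISAT2 2.0.4, DESeq2 1.4.5 and Bowtie2 2.2.5 and the build was mm10, with no role stated. The labels' protocols name no strand-marking step, so overlapping genes may share reads. Since FPKM is relative to the sample's total, a gain in abundant genes lowers the rest.

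Samples were grouped by title. Genes that reached 0.5 FPKM in 3 or more libraries were tested by limma 3.58.1 (R 4.3.3; trend and robust prior, group as the only term, two-sided) on log2(FPKM + 1), adjusted by Benjamini-Hochberg over 12846 genes with a threshold of 0.05. This scale understates changes of low genes. The fit was run on simulated reads from independent libraries with a fixed spread. That checks the code and not the calls in these data, whose libraries differ in other ways. Alternatives changed the pseudocount, filter, scaling, variance trend or test (limma-voom on recovered reads), removed GC and length trends, added the replicate number as a block or left out 1 library. Same-numbered samples did not deviate together (r = -0.157, 0.167 and -0.172), and the highest r was 0.283, for siSetdb1 replicate 3 and siNC replicate 1. With 3 libraries per group these values are a weak check and cannot exclude a pairing. The genes, lists and tests were chosen with earlier results of these data known. Each pathway gene that passed was named where a list had 6 or fewer, otherwise the 6 with the largest change, and Igf1, Igf2r and Irs1 always.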

Additional observations from a re-analysis of the deposited data

How the results depend on the processing

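With all 6 libraries 4 of the 7 genes with a row, 26 of 89 pathway genes and 1945 of all genes tested passed. With no filter on low values 8 pathway genes and 890 genes in all passed. With the replicate number as a block, which these samples did not bear out as a pairing, 3 of the 7 genes, 13 pathway genes and 1015 genes in all passed, and Igf1r had an adjusted p of 0.088. Leaving out each library in turn gave 1 to 4 of the 7 genes, 7 to 27 pathway genes and 683 to 2176 genes in all, with the lowest counts without siSetdb1 replicate 2 (for the 7 genes, also without replicate 1). In the fits without 1 library the smaller group has 2 samples, whose spread is estimated together with the other group. The log2 fold change of Insr was -0.043 with trends in GC content and gene length removed and 0.038 to 0.129 in the other fits. Igfbp3 passed in all 15 alternatives, Igfbp4 and Igfbp7 in 13 each and Igf1r in 7. Irs2 passed in none. Median-ratio scaling shifted the median of all genes to 0.002 and gave 997 genes higher and 847 lower, against 883 and 1062. A test without filter by limma-voom on reads was added after seeing the data. Depth limits Igfbp6, Igf1 and Igfals, which had at most 9 reads in any library.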
